A study of Mus musculus with 40 samples.

Results

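The transcripts examined here are those of the mitochondrial respiratory chain and the ATP synthase, in liver and kidney of mice given phenobarbital (PB). The members were every gene on the Mouse430_2 expression array whose symbol begins with Ndufa, Ndufb, Ndufc, Ndufs, Ndufv, Uqcr, Cox4i, Cox5, Cox6, Cox7 or Atp5, together with Sdha, Sdhb, Sdhc, Sdhd, Cycs and Cyc1. That rule found 89 of the 18193 genes that have a probe set of their own. The 10 probe sets that list a second gene beside such a symbol were left out, and where a gene had several probe sets (50 members did), the brightest on average over all 40 arrays stood for it. By symbol the 89 members comprise 34 subunits of complex I, 8 complex I assembly factors of the Ndufaf series, 4 subunits of complex II, 9 of complex III, cytochrome c, 16 members grouped with complex IV and 17 subunits of complex V. Ndufa4 and Ndufa4l2 were counted with complex IV, where the protein of Ndufa4 is now placed, and so was Cox7a2l, which helps to join complexes III and IV. The rule thus admits assembly and joining factors beside true subunits, and the assembly factors are described apart.

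The study asked how 4 weeks of PB, a liver tumour promoter in this mouse, alters the transcriptome of its target tissue (liver) and of a non-target tissue (kidney). All animals were male B6C3F1/Crl hybrids of a C57BL/6 male and a C3H/He female, 29 to 32 days old on arrival, and the labels name no engineered allele. After 5 days of acclimatisation, 10 animals drank water with 0.05% (w/v) PB for 28 days and 10 animals served as controls. Liver and kidney of each of the 20 animals were hybridised to 1 array each, which gives the groups control liver, PB liver, control kidney and PB kidney with 10 animals apiece.

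The respiratory chain sits in the inner mitochondrial membrane. Complex I takes electrons from NADH and complex II takes them from succinate, ubiquinone carries them to complex III, cytochrome c carries them on to complex IV, and complex IV hands them to oxygen. The proton gradient built on the way drives complex V, the ATP synthase. Most subunits are encoded in the nucleus, a few in mitochondrial DNA, and several complex IV subunits have a ubiquitous isoform and another that is best known from heart, muscle, lung or testis. Both hepatocytes and kidney tubule cells are rich in mitochondria.

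The values were MAS5 signals, a linear intensity that the authors scaled to the same trimmed mean on every array. A gene was tested where its mean reached 50 in at least 1 of the groups compared, and a gene was called where its Benjamini-Hochberg adjusted p over all genes tested was under 0.05. Hepatocyte and kidney tubule markers matched the labelled tissues: the summed signal of 6 hepatocyte genes was 95165 to 139356 in livers and 6979 to 13406 in kidneys, and that of 6 tubule genes was 78.9 to 403 in livers and 28905 to 36955 in kidneys. Most of the kidney sum of hepatocyte genes was Ttr (6360 to 12556), and Alb ran from 61.2 to 1029.6 in kidneys. Control liver 5 had the highest liver signals of the tubule genes Slc34a1 (163.6) and Umod (122.9). PB liver 20 had those of the muscle genes Acta1 (430.8) and Tnnt3 (100.8) and of the fat genes Adipoq (168.6) and Fabp4 (872.5). It was not the highest liver for the muscle genes Ckm (60.7) and Myh4 (5.5) or the fat gene Lep (1.4). The source of these signals was not tested. Bulk tissue was arrayed, so fewer cells of a type and less RNA per cell cannot be told apart. The median coefficient of variation among the 10 animals of a group was 6.33 to 8.03% for the members tested, against 10.9 to 15.5% for all genes tested and 7.7 to 9.74% for genes with a mean over 1000, where most members lie. In control kidneys the members varied slightly more than those genes (8.03% against 7.74%). Ndufb4, Cox4i2 and Cox7b2 did not reach a mean of 50 in any group, with highest single arrays of 34.2, 47.7 and 13.5, and were tested nowhere. Ndufb4 has further probe sets that also list other genes, and these were among the 10 left out. Cox6b2, Cox7a1 and Ndufa4l2 were under 50 in livers.

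Few respiratory chain transcripts changed in the livers of PB mice. Of 83 members tested, Ndufb1 rose, Ndufaf1 fell and the other 81 were not called. Over all 9920 genes tested in liver, 6.94% were called higher, 8.7% lower and 15.6% in either direction. The median log2 difference was 0.006 over the members and -0.018 over all genes, and the median size of the difference without its sign was 0.047 against 0.128. The 95% interval of the PB effect lay wholly within 1.2-fold either way for 73 of the 83 members (88%) and for 30.5% of all genes tested. It lay within 1.5-fold for 82 of the 83 members (98.8%), Ndufb1 being the exception, and for 82% of all genes. Without control liver 5, 3 members were called higher in PB livers. In no member did the PB livers lie wholly above or below the control livers, and 1.33% of all genes lay wholly above, 0.433% below and 1.76% one or the other.

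Ndufb1 encodes a small accessory subunit of complex I. In control livers its lowest, median and highest signals were 76.0, 105.6 and 123.9. In PB livers they were 104.1, 139.05 and 163.6. Of the PB livers 8 were above the highest control liver, and the groups overlapped. The means were 103 ± 16.8 and 139 ± 21.4 (SD, n = 10 each), a log2 difference of 0.42 (SE 0.11, adjusted p = 0.00854). In kidneys, where the ranges were 55.9 to 108.3 in controls and 69.6 to 113.0 with PB, the difference was 0.03 (95% interval -0.19 to 0.25). The gene has 1 probe set, with means of 88.9 to 139 in the 4 groups. Every other complex I subunit tested had means of 946 or more. The Ndufb1 signals may therefore not reflect the main transcript, which was not tested.

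Ndufaf1 encodes an assembly factor (CIA30) that is needed to build complex I. Its signals were 562.7, 603.45 and 681.9 in control livers and 489.5, 549.15 and 603.3 in PB livers (lowest, median and highest). Of the PB livers 7 were below the lowest control liver, and the groups overlapped. The means were 610 ± 36.3 and 548 ± 33.0 (SD, n = 10 each), a log2 difference of -0.16 (SE 0.05, adjusted p = 0.0254). In kidneys the difference was -0.07 (SE 0.03, adjusted p = 0.199). The other 7 Ndufaf genes were not called in either tissue.

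The promoters of the 2 genes called in PB livers are shown because these were the only members called for treatment within a tissue. RefSeq start sites of the GRCm38.p6 assembly were available for 73 of the 89 members, and the 250 bases before the start are printed 5′ to 3′ on the gene's strand. Capitals mark CCGGAAG, the core of an ETS (GABPA) site.
Ndufb1, chr12:101975739-101975988 (- strand): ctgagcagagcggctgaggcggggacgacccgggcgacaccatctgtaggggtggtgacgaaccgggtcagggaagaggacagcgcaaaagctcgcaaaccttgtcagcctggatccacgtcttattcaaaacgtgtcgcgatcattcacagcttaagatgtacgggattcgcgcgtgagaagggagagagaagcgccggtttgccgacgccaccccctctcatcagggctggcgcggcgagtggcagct
Ndufaf1, chr2:119662835-119663084 (- strand): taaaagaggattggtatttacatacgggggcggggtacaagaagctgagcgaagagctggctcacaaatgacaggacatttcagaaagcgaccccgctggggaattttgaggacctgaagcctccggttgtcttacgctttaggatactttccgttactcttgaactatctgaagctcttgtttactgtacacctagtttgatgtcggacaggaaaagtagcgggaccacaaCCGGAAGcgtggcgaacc
The Ndufb1 window held none of the 4 motifs searched on both strands (CGCATGCG of NRF1, CCGGAAG of ETS factors, AAGGTCA of ERR receptors and AAGATGGC of YY1), and the Ndufaf1 window held 1 ETS core that begins 18 bases before the start. In the full windows of 250 bases before to 50 after the start, the ETS core was found in 18 of 73 members (24.7%) and in 9.93% of 27025 promoters of all genes. The NRF1 letters were found in 11 members (15.1%, against 2.07%), the YY1 letters in 10 (13.7%, against 3.19%) and the ERR letters in 8 (11%, against 5.38%). These are matches of letters, not measured binding sites, and a promoter could hold several of them.

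In kidney no member was called after PB. Of 86 members tested with limma, 0 passed the threshold and 6 had an unadjusted p under 0.05, while 2.56% of the 10048 genes tested were called higher, 1.9% lower and 4.46% in either direction. Student's t with the same adjustment called 1 member higher and 1 lower, and limma without PB kidney 14 called 1 higher. The median log2 difference was -0.023 over the members and 0.009 over all genes, and the median size was 0.043 against 0.076. The 95% interval lay within 1.2-fold for 78 of 86 members (90.7%) and for 59.6% of all genes. It lay within 1.5-fold for 85 members (98.8%), all but Cox6a2, and for 95.2% of all genes. No member had PB kidneys wholly above or below the control kidneys, and 0.159% of all genes had them above, 0.0796% below and 0.239% one or the other.

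**Figure D1:**
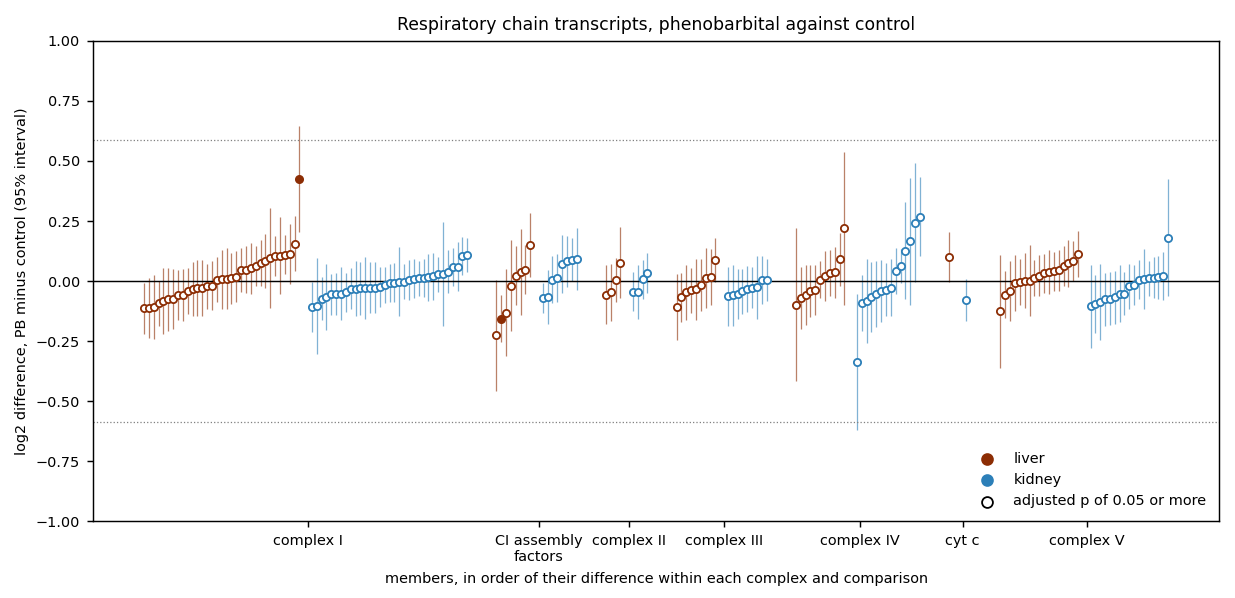
PB minus control log2 difference of every tested member with its 95% interval, by complex, in liver (83 members) and kidney (86 members). Filled points are called (adjusted p under 0.05), dotted lines mark 1.5-fold, and only Ndufb1 (0.42) and Ndufaf1 (-0.16) are filled, both in liver.

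The largest positive kidney difference belonged to Cox7a1, the heart and muscle isoform of complex IV subunit VIIa, which is also abundant in brown fat. Its control kidneys ran from 156.9 through a median of 202.8 to 220.2, and its PB kidneys from 197.4 through 237.0 to 302.6. The means were 199 ± 18.4 and 241 ± 37.4 (SD, n = 10 each), a log2 difference of 0.27 (95% interval 0.10 to 0.43, adjusted p = 0.0532). Some brown fat genes were also higher in PB kidneys. Ucp1, the uncoupling protein that defines brown fat, was at 130.7 to 609.4 in 6 PB kidneys and at 2.6 to 54.2 in the other 4, against 1.4 to 75.3 in control kidneys. Of the 6 brown fat markers 4 could be tested in kidney, and Ucp1, Cidea and Cox8b were called higher. These 3 reached the limit of 50 only through the PB kidneys, so their calls are no separate support. Their means were 22.4, 26.3 and 9.41 in control kidneys and 198, 192 and 98.3 in PB kidneys. Ppara (435 in control and 416 in PB kidneys) was not called higher. Elovl3 (22.57 and 26.35) and Dio2 (26.05 and 21.11) stayed under 50. The summed signal of the list spanned 390.8 to 674.9 among control kidneys and 490.5 to 1672.9 among PB kidneys, and that of 3 white fat markers spanned 731.5 to 1364.4 and 920.2 to 6316.3. In the 6 kidneys with high Ucp1, Cox7a1 was at 197.4 to 302.6, and in the other 4 it was at 200.2 to 226.8. Without those 6 kidneys the Cox7a1 difference was 0.11 (adjusted p = 0.694, 4 PB against 10 control kidneys). Over the 16 other settings run the Cox7a1 difference was 0.11 to 0.29 (adjusted p 0.0327 to 0.694), and 3 of them called it. The other 4 PB kidneys were not free of fat markers. In PB kidney 16 Cidea was at 101.1, Cox8b at 66.0 and Adipoq at 234.4. Control kidneys reached 77.6, 36.0 and 115.6 at most. With 4 PB kidneys the difference is also measured less precisely. Whether fat in the samples contributed to the Cox7a1 values was not tested.

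**Figure D2:**
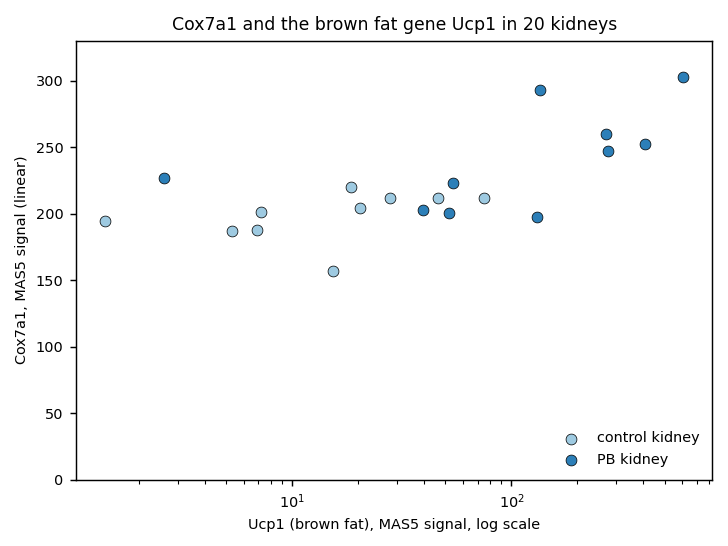
Cox7a1 signal (vertical, linear MAS5 units) against Ucp1 signal (horizontal, log scale) in the 10 control and 10 PB kidneys, 1 point per animal. The 5 highest Cox7a1 values, up to 302.6, are PB kidneys whose Ucp1 lies above every control kidney (75.3 or less).

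The median PB difference was near 0 in every complex. In liver it was 0.007 over 33 complex I subunits, 0.002 over 8 assembly factors, -0.022 over 4 complex II subunits, -0.034 over 9 complex III subunits, 0.005 over 11 complex IV members and 0.023 over 17 complex V subunits. In kidney the same medians were -0.008, 0.042, -0.019, -0.033, -0.032 (14 members) and -0.022. Cytochrome c (Cycs) gave 0.10 in liver (adjusted p = 0.177) and -0.08 in kidney (adjusted p = 0.319). Apart from Ndufb1 and Ndufaf1, no complex held a called member in either tissue. The catalytic and iron-sulfur subunits of complex II illustrate the precision: Sdha, the flavoprotein, had a PB difference of -0.05 (95% interval -0.17 to 0.07) in liver and -0.04 (-0.13 to 0.04) in kidney, and Sdhb had 0.08 (-0.07 to 0.22) and -0.04 (-0.16 to 0.07). Cox4i1, the ubiquitous isoform of complex IV subunit IV, had 0.04 (-0.07 to 0.14) in liver and -0.03 (-0.15 to 0.09) in kidney.

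Between liver and kidney the respiratory chain transcripts differed in both directions, and by a smaller median size than the genes tested as a whole. In control mice 18 of 85 members tested were called higher in liver and 32 lower, 50 in all (58.8%). Over the 10920 genes tested, 36.5% were called higher, 44.2% lower and 80.8% in either direction. In PB mice 25 of 86 members were called higher in liver and 34 lower, where 36.3%, 46.7% and 83% of 11029 genes were. The median size of the tissue difference was 0.195 log2 over the members and 0.619 over all genes in control mice, and 0.221 against 0.635 in PB mice. In control mice all livers lay above all kidneys in 7 members and below them in 14, where 20.2% and 27.9% of all genes did (48.1% either way). In PB mice these were 10 and 14 members, where 21% and 29.6% of all genes did (50.6% either way). The members carry higher signals than most genes, so genes with a mean of at least 1000 in either tissue were also counted, a limit chosen after the values were seen. In control mice 91.3% of 1937 such genes were called and 41 of the 72 members among them (56.9%), with median sizes of 0.947 and 0.153.

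The split between higher and lower depended on the scaling. Quantile normalization, which forces all arrays to one distribution, gave 8 members higher and 71 lower in liver in control mice, and 7 and 72 in PB mice. It moved the members' median tissue difference from -0.066 to -0.373 in control mice and from -0.04 to -0.413 in PB mice, while the median over all genes moved from -0.083 to 0.005 and from -0.115 to -0.021. Of all genes called under quantile normalization, 49.8% were higher in liver in control mice and 48.9% in PB mice. Centring each array on its median gave 16 members higher in PB mice and moved the median over all genes there from -0.115 to -0.241. Of all genes called there after centring, 36.8% were higher in liver. Members with signals of 5000 or more over all arrays were called higher in liver more often than lower (11 against 4 of 26 in control mice), and the rest lower more often than higher (28 against 7 of 59). That limit too was chosen after the values were seen. Under all 3 scalings and in both groups of mice, 3 members were called higher in liver and 26 lower.

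The control and the PB mice are separate animals, so the tissue difference was measured in different animals in each. Of the 85 members tested in both, 45 were called in both with the same sign, which is 90% of the 50 called in control mice and 77.6% of the 58 called in PB mice. None was called with opposite signs. Of the 45, 17 were higher and 28 lower in liver. The share of all genes called in both groups of mice was not counted, so the agreement of the members has no baseline. Most genes were called between the tissues, 80.8% in control mice and 83% in PB mice.

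**Figure D3:**
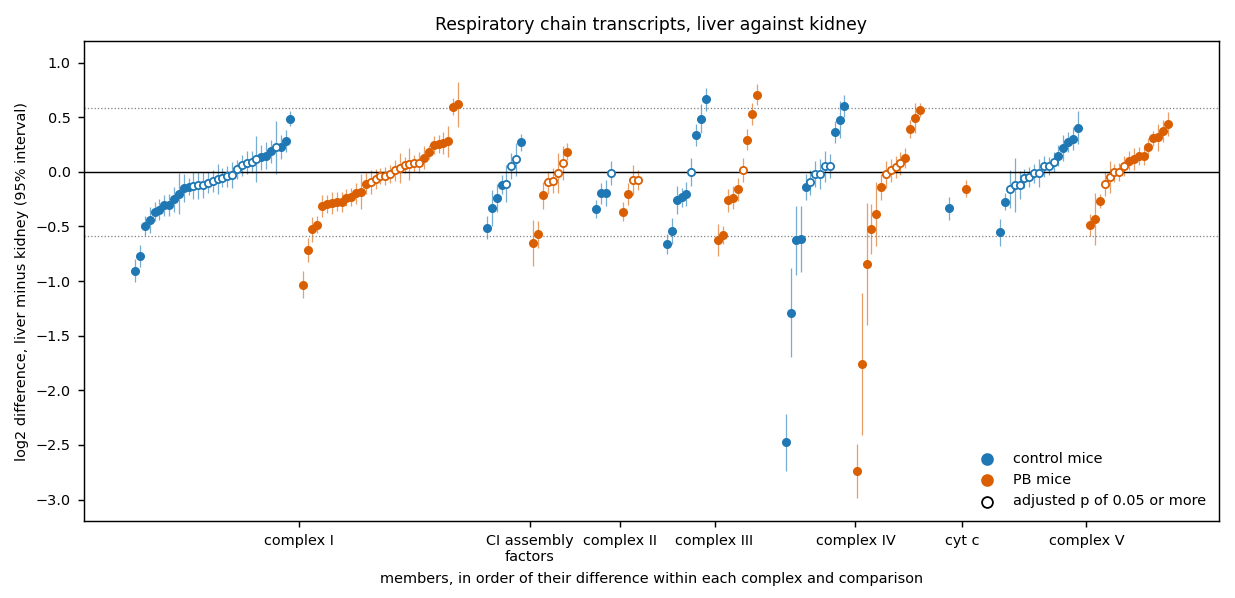
Liver minus kidney log2 difference of every tested member with its 95% interval, by complex, in control mice (85 members) and PB mice (86 members). Filled points are called (adjusted p under 0.05) and dotted lines mark 1.5-fold, the lowest pair is Cox7a1 (-2.48 and -2.73), and most members lie between the dotted lines.

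Complex I had more members called lower in liver than higher. In control mice 12 of 33 subunits were lower in liver and 6 higher, with a median of -0.087. In PB mice 14 were lower and 8 higher. Over all genes tested 44.2% were lower and 36.5% higher in control mice, and 46.7% and 36.3% in PB mice. Under all 3 scalings 11 complex I subunits were lower in liver and 1 higher. How many of all genes kept their call under all 3 was not counted. Ndufc1, a small accessory subunit, differed most. Its control livers ran from 2324.7 through a median of 2540.35 to 2831.6, and its control kidneys from 4094.8 through 4825.5 to 5358.9. Livers and kidneys did not overlap, and the log2 difference was -0.91 (SE 0.05, adjusted p = 1.12e-13) in control mice and -1.03 (SE 0.06, adjusted p = 1.42e-13) in PB mice. A second Ndufc1 probe set gave -0.68 in control mice. Ndufs1, the largest core subunit, which carries iron-sulfur clusters, had control livers of 1015.3, 1181.8 and 1348.3 and control kidneys of 1845.4, 2026.55 and 2230.1 (lowest, median and highest). Again the tissues did not overlap, and the difference was -0.77 (SE 0.05) in control and -0.71 (SE 0.05) in PB mice. Ndufa12, an accessory subunit, was also lower in liver, by -0.36 (SE 0.04) and -0.29 (SE 0.04). Ndufa7, another accessory subunit, was higher in liver under all 3 scalings, with control livers of 2913.3 to 3223.1 and control kidneys of 2035.5 to 2392.3. Its log2 difference was 0.48 (SE 0.03) in control mice and 0.60 (SE 0.04) in PB mice, but 1 of its 4 other probe sets was called in the opposite direction (-0.13 in control mice). Ndufa3, an accessory subunit, was 0.28 higher in control mice on the log2 scale and became -0.15 under quantile normalization. Ndufb1 differed by 0.22 (SE 0.12, adjusted p = 0.0829) in control mice and by 0.62 (SE 0.10, adjusted p = 4.96e-06) in PB mice.

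The assembly factors of complex I were split. In control mice 4 of 8 were lower in liver and 1, Ndufaf1, was higher (0.27, SE 0.04). Over all genes tested 44.2% were lower and 36.5% higher there. Ndufaf7, a methyltransferase that modifies a core subunit during assembly, had control livers of 173.2 to 208.2 and control kidneys of 227.2 to 288.6, a log2 difference of -0.51 (SE 0.05) in control mice and -0.57 (SE 0.06) in PB mice. Ndufaf5, a hydroxylase of a core subunit, differed by -0.33 (SE 0.08) and -0.65 (SE 0.10), the first not called under quantile normalization (-0.14, adjusted p = 0.0938). Livers and kidneys did not overlap for Ndufaf7 in either group of mice.

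Complex II, which is also an enzyme of the citrate cycle, was lower in liver or not called. The Sdhc anchor subunit had control livers of 2079.7 to 2378.9 and control kidneys of 2533.8 to 3084.9, with no overlap, and differed by -0.34 (SE 0.04, adjusted p = 7.24e-08) in control and -0.37 (SE 0.04, adjusted p = 2.92e-08) in PB mice. Sdha differed by -0.20 (SE 0.05) in both groups of mice, yet another Sdha probe set was called higher in liver (0.28 in control mice). Sdhb differed by -0.20 (SE 0.06, adjusted p = 0.00439) in control and -0.07 (SE 0.07, adjusted p = 0.306) in PB mice. Sdhd, the second anchor, differed by -0.01 (95% interval -0.12 to 0.10) and -0.07 (-0.17 to 0.02).

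Most members of complex III, and cytochrome c, were called between the tissues, as most genes were. In both groups of mice 5 of 9 complex III subunits were lower in liver and 3 higher. Over all genes tested 80.8% in control and 83% in PB mice were called in either direction, a share near that of complex III. Uqcrc2, a core subunit, had control livers of 3100.5 to 3678.7 and control kidneys of 4569.2 to 5867.3, a difference of -0.66 (SE 0.04) in control and -0.58 (SE 0.04) in PB mice. Uqcr10, a small accessory subunit, differed by -0.54 (SE 0.06) and -0.62 (SE 0.07), and its other probe sets gave -0.93 and -0.92 in control mice. Uqcrq, the ubiquinone-binding accessory subunit, went the other way without overlap, with control livers of 3820.2 to 4980.2 and control kidneys of 2487.1 to 3123.9. It was 0.66 (SE 0.05, adjusted p = 3.68e-11) higher in liver in control and 0.71 (SE 0.05, adjusted p = 1.18e-12) in PB mice, under all 3 scalings. Uqcrb was 0.48 (SE 0.06) higher in control mice, but -0.35 under quantile normalization, and another probe set gave -0.08. Cyc1, the cytochrome c1 subunit, differed by -0.00 (95% interval -0.13 to 0.13) and 0.02 (-0.09 to 0.12). Cycs, the mobile carrier, was lower in liver, by -0.33 (SE 0.05, adjusted p = 2.71e-06) in control and -0.16 (SE 0.04, adjusted p = 0.000694) in PB mice. Without the 6 PB kidneys with high Ucp1 the latter was -0.13 (adjusted p = 0.0717). The size depended on the probe set: the 3 other Cycs probe sets gave -0.95, -1.29 and -1.19 in control mice.

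In complex IV, Cox7a1 and Cox6b2, which both have a more widely expressed counterpart, were lower in liver. Their liver signals were under the limit of 50, so their log2 differences are uncertain in size. They are also given with signals under 50 set to 50. Both were tested only because their kidneys reached that limit, so their calls are no separate support. Cox7a1 livers ran from 19.5 to 46.7 in controls and from 24.0 to 49.9 with PB, and every kidney was at 156.9 or more. The log2 difference was -2.48 (SE 0.13, adjusted p = 1.76e-14) in control and -2.73 (SE 0.12, adjusted p = 6.53e-16) in PB mice. With the floor of 50 it was -1.98 and -2.25, so the kidney level was at least 3.96-fold and 4.76-fold that of liver. Its counterpart Cox7a2, the ubiquitous or liver isoform, differed by 0.05 (SE 0.05, adjusted p = 0.35) in control and 0.13 (SE 0.04, adjusted p = 0.0107) in PB mice. The call in PB mice turned to -0.70 under quantile normalization and was lost under median centring (adjusted p = 0.995) and without the 6 PB kidneys with high Ucp1 (0.11, adjusted p = 0.182). The other Cox7a2 probe set gave -0.26 in control and -0.17 in PB mice. Cox6b2, best known from testis, had control livers of 10.1 to 35.1 and control kidneys of 40.9 to 73.1 with no overlap, a difference of -1.29 (SE 0.20) in control and -1.76 (SE 0.31) in PB mice. With the floor it was -0.22 and -0.43, smaller than the differences of Ndufc1, and still called. Its counterpart Cox6b1 differed by 0.05 (95% interval -0.09 to 0.19) and 0.08 (-0.03 to 0.18). Cox6a2, the heart and muscle isoform of subunit VIa, had signals of 34.9 to 71.6 in control livers and 58.4 to 108.9 in control kidneys, which overlap. It was lower in liver by -0.63 (SE 0.15, adjusted p = 0.000686) in control and -0.39 (SE 0.14, adjusted p = 0.0151) in PB mice. The call in PB mice was lost under quantile normalization (adjusted p = 0.0548), with array number as a covariate (adjusted p = 0.0767) and without the 6 PB kidneys with high Ucp1 (adjusted p = 0.0676). Its counterpart Cox6a1 was higher in liver, by 0.48 (SE 0.08) and 0.49 (SE 0.07), but -0.29 and -0.35 under quantile normalization, and its other probe set gave -0.22 in control mice. Cox4i1 differed by -0.02 (95% interval -0.14 to 0.10) and 0.04 (-0.06 to 0.15), and Cox4i2, the lung isoform, was not tested. Cox5a, which has no paired isoform, was 0.60 (SE 0.05) higher in liver in control mice and -0.07 under quantile normalization, and 1 of its other probe sets gave -0.03. Cox7a2l was higher in liver under all 3 scalings, by 0.36 (SE 0.05) and 0.39 (SE 0.04), with control livers of 1156.7 to 1503.6 and control kidneys of 930.9 to 1119.8. Ndufa4 differed by -0.10 (95% interval -0.21 to 0.02) and 0.01 (-0.09 to 0.12). Cox7c, whose only tested probe set had signals of 29.6 to 105.4 over all arrays, was lower in liver by -0.61 (SE 0.15) and -0.52 (SE 0.11). Its group means were 53.65 to 87.76, so these values may not reflect the main transcript. It still counts among the members lower in liver under all 3 scalings.

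The promoters of Cox7a1 and of 2 ubiquitous complex IV isoforms are shown to set the member that differed most between the tissues beside members found in both. Capitals mark CGCATGCG (NRF1) and CTTCCGG (the ETS core on the other strand).
Cox7a1, chr7:30183921-30184170 (+ strand): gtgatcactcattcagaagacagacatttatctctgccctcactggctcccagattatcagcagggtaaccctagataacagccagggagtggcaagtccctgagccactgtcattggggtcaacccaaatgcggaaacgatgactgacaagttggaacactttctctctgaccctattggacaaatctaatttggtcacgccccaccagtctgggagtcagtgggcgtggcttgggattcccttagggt
Cox7a2, chr9:79759854-79760103 (- strand): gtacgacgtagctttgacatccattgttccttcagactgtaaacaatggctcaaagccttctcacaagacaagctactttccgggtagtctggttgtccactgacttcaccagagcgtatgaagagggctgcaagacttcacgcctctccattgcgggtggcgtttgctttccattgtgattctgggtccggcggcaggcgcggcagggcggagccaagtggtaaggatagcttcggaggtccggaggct
Cox6a1, chr5:115348959-115349208 (- strand): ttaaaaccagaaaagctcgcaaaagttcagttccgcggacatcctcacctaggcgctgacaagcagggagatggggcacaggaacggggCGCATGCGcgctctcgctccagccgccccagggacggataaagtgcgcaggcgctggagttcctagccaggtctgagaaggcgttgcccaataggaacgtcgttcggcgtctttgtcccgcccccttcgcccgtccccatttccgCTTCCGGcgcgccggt
Cox6a1 held 1 NRF1 motif that begins 161 bases before the start and 1 ETS core 16 bases before it. The Cox7a1 and Cox7a2 windows held none of the 4 motifs, and 51.2%, 54.8% and 62.8% of the bases of Cox7a1, Cox7a2 and Cox6a1 were G or C. The median liver minus kidney difference in control mice was -0.046 over the 11 members with the NRF1 letters and -0.076 over the 60 tested members without them. It was 0.02 over 18 members with the ETS core and -0.097 over 53 without. No test was made of these medians.

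Complex V had more members called higher in liver than lower. In control mice 5 of 17 subunits were higher in liver and 2 lower, and in PB mice 9 and 3. Over all genes tested 36.5% were higher and 44.2% lower in control mice, and 36.3% and 46.7% in PB mice. Atp5o, the OSCP subunit that joins the catalytic head to the stalk, had control livers of 2447.9 to 2944.7 and control kidneys of 3349.5 to 4793.7, and it was lower in liver by -0.55 (SE 0.06) in control and -0.49 (SE 0.05) in PB mice. Atp5mpl, a small membrane subunit, was lower by -0.27 (SE 0.04) and -0.27 (SE 0.03). Atp5md, another small membrane subunit, differed by -0.12 (SE 0.12, adjusted p = 0.345) in control and -0.43 (SE 0.12, adjusted p = 0.00159) in PB mice. Atp5g3, which encodes subunit c of the rotor ring, was 0.40 (SE 0.07) and 0.43 (SE 0.05) higher in liver, and -0.31 and -0.36 under quantile normalization. Atp5h, a stalk subunit, was 0.30 and 0.37 higher, -0.37 and -0.38 under quantile normalization, and its other probe set gave -0.24 in control mice. None of the complex V subunits was higher in liver under all 3 scalings in both groups of mice, and Atp5o and Atp5mpl were lower under all of them.

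**Figure D4:**
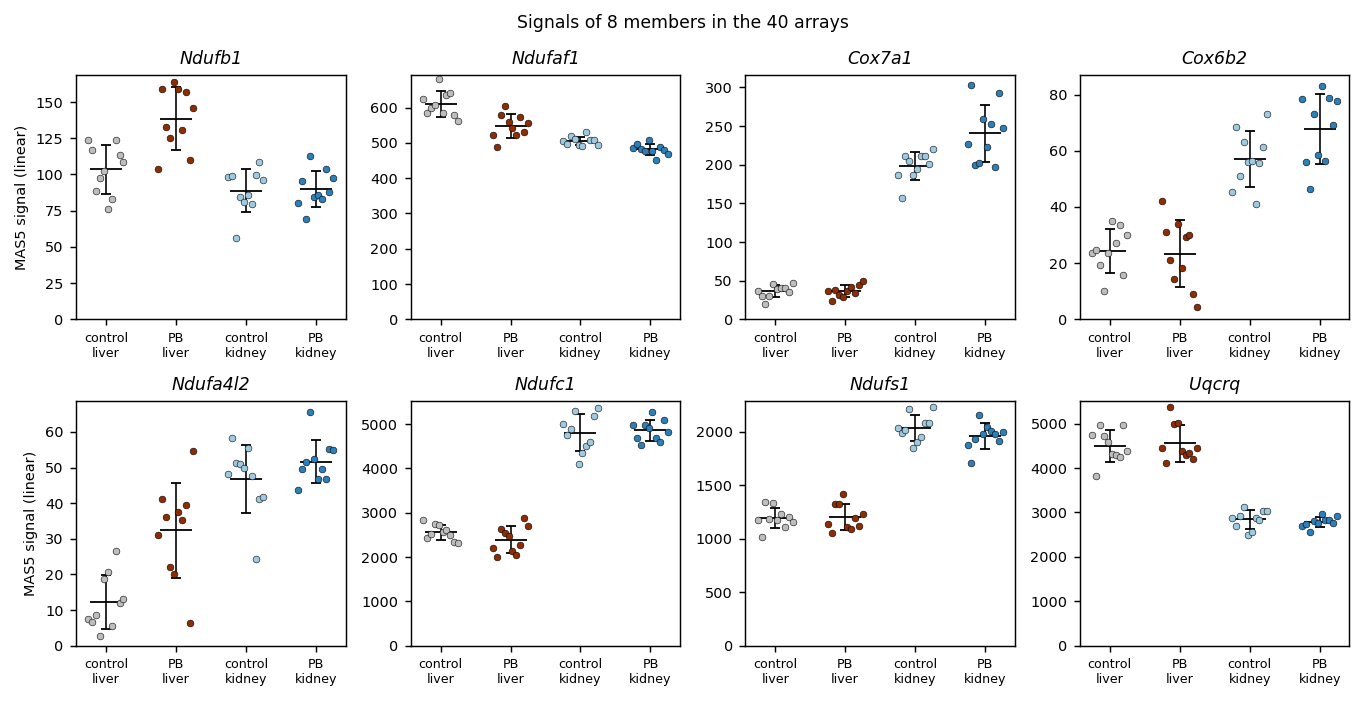
MAS5 signal (linear, from 0) of 8 members in all 40 arrays, 1 point per animal in order of animal number, with mean and SD bars. Ndufb1 and Ndufaf1 are the genes called in PB livers, Cox7a1, Cox6b2, Ndufc1 and Ndufs1 are lower in liver, Uqcrq is higher, and Ndufa4l2 is low in control livers (26.6 or less).

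Probe sets of the same gene did not always point the same way. In control mice 29 called members had another tested probe set: in 15 it was called in the same direction, in 7 another one was called in the opposite direction, and in 7 the others were not called. In PB mice these counts were 19, 11 and 4 of 34. Probe sets whose names end in _s_at, _x_at or _a_at can also bind related transcripts. With only the other probe sets, 7 members were higher in liver in control mice and 12 in PB mice. Of the 26 members lower in liver under all 3 scalings, 15 had another tested probe set. For Sdha and Cox6c it was called in the opposite direction in at least 1 group of mice, for the other 13 it was not, and 11 members had no other probe set to compare. Of the 3 that were higher, 2 had another tested probe set and Ndufa7 had one called in the opposite direction.

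**Figure D5:**
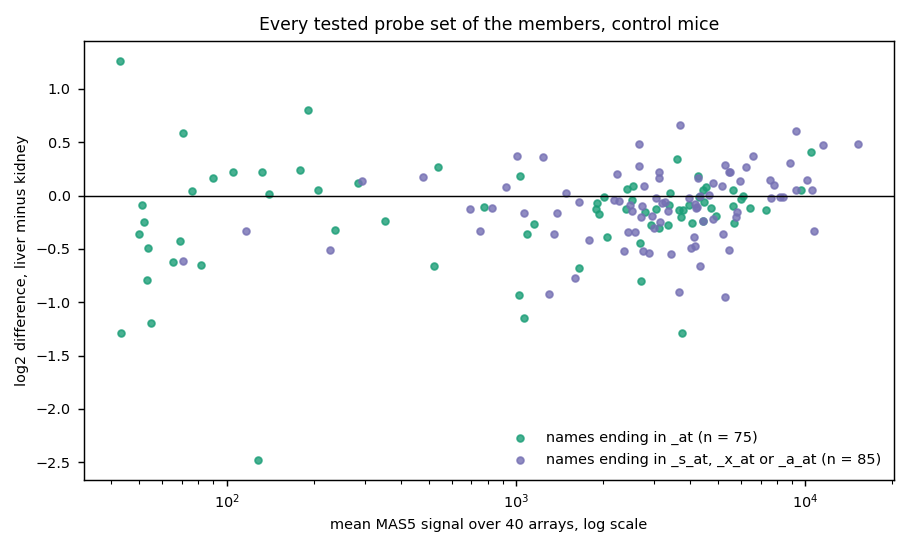
Liver minus kidney log2 difference in control mice (vertical) against mean MAS5 signal over 40 arrays (horizontal, log scale) for each of the 160 tested probe sets of the members, by kind of probe set name. Of names ending in _s_at, _x_at or _a_at 20 of 85 were called higher and 36 lower, of other names 10 and 35 of 75, and the lowest point is Cox7a1 (-2.48).

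The PB effect was called different between the tissues in 1 member, whose signals lay near or under the limit of 50. Over 11193 genes tested, 4.02% had a higher and 4.81% a lower PB effect in liver than in kidney (8.83% in all). Of 86 members, Ndufa4l2 was called, with a difference of 1.35 on the log2 scale (SE 0.43, adjusted p = 0.0422 with limma). Its direction held but the call was lost under 8 other settings, among them leaving out PB liver 20 (1.24, adjusted p = 0.0656) or control liver 2 (1.28, adjusted p = 0.0588). Leaving out control liver 5 gave 2 members called higher. This gene encodes a relative of Ndufa4 that is known for its induction by hypoxia. Its signals were 2.7, 10.2 and 26.6 in control livers and 6.3, 35.8 and 54.6 in PB livers (lowest, median and highest), both with means under 50. Of the PB livers 7 were above the highest control liver and 3 were not. Control kidneys ran from 24.2 through 49.05 to 58.4 and PB kidneys from 43.8 through 50.6 to 65.6. The gene was tested only because PB kidneys reached the limit of 50, with a mean of 51.64, so its call is no separate support. The other group means were 12.21 in control livers, 32.4 in PB livers and 46.89 in control kidneys. With signals under 50 set to 50 the difference was -0.022 (adjusted p = 0.857). The interaction values of Cycs (0.18, adjusted p = 0.0666) and Ndufb1 (0.39, adjusted p = 0.103) came next. The comparisons of PB with control and of the PB effects share their arrays.

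Among neighbouring genes of mitochondrial energy metabolism, PB called a few in liver and Cox8b in kidney. Of 12 citrate cycle genes tested, 3 rose in PB livers and none fell, where 6.94% of all genes were called higher and 8.7% lower. Cs, citrate synthase, ran from 998.8 through 1129.8 to 1318.2 in control livers and from 1204.8 through 1451.85 to 1697.7 in PB livers, a log2 difference of 0.34 (SE 0.06, adjusted p = 0.000361). Idh3a, a subunit of isocitrate dehydrogenase, rose by 0.42 (SE 0.10, adjusted p = 0.00536) and Mdh2, malate dehydrogenase, by 0.15 (SE 0.04, adjusted p = 0.0131). Of 14 genes of other electron carriers, Gpd2, the glycerol-3-phosphate dehydrogenase that feeds the ubiquinone pool, fell by 0.42 (SE 0.06, adjusted p = 3.3e-05) and none rose. Of 32 further assembly factors, 2 rose and 2 fell, shares near those over all genes, the copper chaperone Cox17 rising by 0.20 (SE 0.06). Of 17 regulators of mitochondrial transcription and DNA, Polg and Yy1 fell, and the coactivator Ppargc1a was not called. None of the 7 carriers was called, and of 2 other subunits tested Cox8c rose by 0.36. In kidney, none of the citrate cycle, carrier, electron carrier, assembly or regulator genes was called. Cox8b, the heart, muscle and brown fat isoform of complex IV subunit VIII, was at 2.2 to 36.0 in control and 3.2 to 245.0 in PB kidneys (adjusted p = 0.00444). All its control kidneys were under 50, and it was tested only because the PB kidneys reached that limit, so the fold is uncertain. With signals under 50 set to 50 the mean log2 difference was 0.809. That mean includes PB kidneys 11, 13 and 14 (3.2, 15.7 and 39.6), which were themselves raised to 50. In the 6 kidneys with high Ucp1 Cox8b was at 57.3 to 245.0, and in the other 4 PB kidneys at 3.2 to 66.0, so the 2 sets overlapped.

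Between the tissues, genes of these lists differed in both directions. In control mice 10 of 12 citrate cycle genes were lower in liver and 1 was higher (44.2% and 36.5% over all genes), with a median log2 difference of -0.657, where the median over the members was -0.066. Cs was 2.01-fold lower in liver. Of 18 regulators of mitochondrial transcription and DNA, 10 were higher in liver and 7 lower, with a median of 0.201. Among them Ppargc1a and Esrra were lower by -3.10 (SE 0.12) and -1.47 (SE 0.14). Tfam, which packages mitochondrial DNA, was 0.18 (SE 0.04) higher. Of 7 carriers 1 was higher and 5 were lower, Slc25a4, the heart and muscle isoform of the ADP/ATP carrier, by -5.35 (SE 0.11). Of 32 further assembly factors 14 were higher and 13 lower, and Sco2 of complex IV was 2.81 (SE 0.09) higher. ND5, the only mitochondrially encoded subunit with a named probe set here, was 0.61 (SE 0.12) higher in liver in control mice and not called after PB in either tissue. Its means were 21489 in control livers and 14297 in control kidneys. The tissue differences of these lists, ND5 among them, were read with the authors' scaling only, and whether they hold under the others was not tested.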

How the data were processed

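Liver and kidney RNA of 20 mice was hybridised to 40 Affymetrix Mouse430_2 arrays, and the number of arrays (10 per group) limits the precision. The deposited values are linear intensities: per the labels and the study's methods, the authors computed them with MAS5 in GCOS and scaled each array to a trimmed mean of 150 (149 here on every array). Sequence reads and depth do not apply. The members, gene lists and tests were chosen with earlier results of these data known.

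Of 45037 probe sets, 34945 have 1 gene symbol in the platform annotation, 932 several and 9160 none. Symbols were updated by Entrez number from the RefSeq table of GRCm38.p6, which matched all 89 members. The members have 178 probe sets. Signals were raised to at least 1 and taken to log2, genes with a mean of at least 50 in 1 of the groups compared were kept, and limma 3.58.1 (R 4.3.3; lmFit, then eBayes with a trend) was fitted across all genes of 2 groups for each of 4 comparisons and of 4 groups for the difference of the PB effects, with Benjamini-Hochberg adjustment (threshold 0.05). Values printed with ± are means and SDs of linear signals. The fit was tested on simulated data. Python 3.11.15, NumPy 2.4.6, pandas 2.3.3, SciPy 1.17.1 and matplotlib 3.10.9 did the rest.

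Named members are those called for PB, the 2 largest called differences in each direction per complex between the tissues, the tissue isoforms with Sdha to Sdhd, Cycs, Cyc1 and Ndufa12, and those called for the difference of PB effects. Cox6c, Cox7b2, Cox7c and Ndufb4 were named after their values were seen. Replicate numbers in the sample titles were read as animal numbers, so liver and kidney of a number were taken to come from the same animal. The titles themselves do not state this. As a check over 15912 probe sets, deviations from the group means had a median r of 0.0777 between liver and kidney from one animal (-0.0661 to 0.198) and of -0.0095 between organs from different animals. For 10 of the 20 animals the own kidney was the best match. The alternatives were other filters, floors, scalings, tests, probe sets, an array number covariate, a block for the animal and arrays left out.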

Additional observations from a re-analysis of the deposited data

Results flagged for a closer look

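Of 156 groups of 10 arrays (39 members in 4 groups), 17 held an array whose gap to the nearest other array was large for the group's range by Dixon's limit, one that chance passes in about 1 of 20 groups. PB kidney 14 was the highest of its group for 7 members: Atp5g3 at 11311.9 (next 8908.4), Cox6a1 at 12764.1 (next 9769.0), Cox7a2 at 11626.8 (next 10200.4), Uqcrb at 14859.2 (next 12598.8), Uqcr10 at 4363.9 (next 3690.9), Sdhd at 2299.8 (next 2127.9) and Ndufa4l2 at 65.6 (next 55.1). PB kidney 13 was the lowest for Atp5h at 6455.3 (next 7353.8) and Cox5a at 6785.7 (next 7467.8).

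Control liver 2 was the lowest of its group for Cox4i1 at 6487.9 (next 7339.9), Sdha at 2873.6 (next 3438.2) and Sdhb at 3655.8 (next 4416.6). Among members of lower signal, Ndufaf7 was highest in control liver 5 at 208.2 (next 188.5) and Ndufb4 in control liver 3 at 34.2 (next 17.9). In control kidneys, Cox7a1 was lowest in animal 2 at 156.9 (next 186.6), Ndufa4l2 lowest in animal 8 at 24.2 (next 41.1) and Cox7b2 highest in animal 4 at 12.7 (next 5.7).

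The PB effect on Ndufa4l2 was called larger in liver than in kidney by 1.35 on the log2 scale, in signals near or under 50. With signals under 50 set to 50 the difference was -0.022.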

How the results depend on the processing

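The higher call of Ndufb1 (0.37 to 0.45, adjusted p 0.00353 to 0.0185) and the lower call of Ndufaf1 (-0.18 to -0.14, adjusted p 0.00127 to 0.0447) in PB livers held in all 17 other settings run for each. The number of members called higher in PB livers was 3 with a mean of at least 100 and with Student's t on linear or on log2 signals, 2 with no filter and 4 with all 40 arrays in 1 fit, and the number lower was 5 under quantile normalization. In PB kidneys it was 1 higher with a mean of at least 100, with arrays centred on their median and with either Student's t, 2 higher under quantile normalization, and 1 lower with either Student's t and with probe sets whose names do not end in _s_at, _x_at or _a_at. Between the tissues, quantile normalization gave 8 higher and 71 lower in control mice and 7 and 72 in PB mice, median centring 16 higher in PB mice, and the probe sets just named 7 higher in control and 12 in PB mice. For the difference of the PB effects 0 were higher with a mean of at least 100 (which leaves out Ndufa4l2), with no filter and with signals under 50 set to 50. The same held with median centring and in the fit over all probe sets. It also held with array number as covariate and without the 6 PB kidneys with high Ucp1. Student's t on linear signals gave 3 higher and 1 lower, and a floor of 50, quantile normalization and median centring gave 1 lower each. The cause was not tested.

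Leaving out single arrays (control liver 2 or 5, PB liver 20 or PB kidney 14, and the 6 PB kidneys), all chosen after seeing the data, gave 1 to 3 members higher and 1 lower in PB livers, 0 to 1 higher in PB kidneys, 17 to 20 higher and 29 to 34 lower in liver in control mice, 19 to 29 and 29 to 32 in PB mice, and 0 to 2 higher for the difference of PB effects. With the animal as a replicate block, 19 members were higher and 34 lower in liver in control mice, with all 50 calls kept, 25 and 33 in PB mice, with 57 of 59 calls kept, and 1 higher and 0 lower for the difference of PB effects. The PB comparisons within a tissue use each animal once, so no block applies there.

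Under quantile normalization the liver minus kidney difference turned to the opposite sign in control mice for Uqcrb (-0.35), Cox6a1 (-0.29), Atp5g3 (-0.31), Cox5a (-0.070), Atp5h (-0.37) and Ndufa3 (-0.15), and in PB mice for Uqcrb (-0.37), Cox6a1 (-0.35), Cox7a2 (-0.70), Atp5g3 (-0.36), Cox5a (-0.21), Atp5h (-0.38) and Ndufa3 (-0.23). With probe sets not ending in _s_at, _x_at or _a_at it did so in control mice for Uqcrb (-0.084), Cox5a (-0.033) and Atp5h (-0.24), and in PB mice for Cox7a2 (-0.17), Cox5a (-0.049) and Atp5h (-0.15). With signals under 50 set to 50 the Ndufa4l2 difference of PB effects was -0.022. Median centring moved the share of called genes that were higher from 44.4% to 33.9% in PB livers, from 57.4% to 73.6% in PB kidneys and from 45.5% to 28.3% for the difference of the PB effects. Signals near 50 lie close to the background of the array. This limits Ndufb4, Cox4i2, Cox7b2, Cox7c and Ndufa4l2, and the liver values of Cox7a1, Cox6b2 and Cox6a2. The Ndufb1 signals, with group means of 88.9 to 139, were also far under those of the other complex I subunits tested.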
